A study of Mus musculus with 12 samples.

Results

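The genes described here are the β subunits of the sodium-potassium ATPase and the small FXYD proteins that regulate the pump. They were chosen by symbol, as the gene columns of the count matrix named Atp1b1, Atp1b2, Atp1b3, Fxyd1, Fxyd5, Fxyd6 and Fxyd7, so 7 of the 55471 genes counted. All 7 held enough reads to be tested, among 19578 genes tested. Total RNA was sequenced from primary hippocampal neuron cultures of wild-type CD1 mouse embryos. The cultures received lipid nanoparticles on day in vitro 7 and were collected on day 10. Nanoparticles carried an LNA gapmer, an antisense oligonucleotide that directs cleavage of its target RNA, either against the long noncoding RNA Neuid (Neuid KD, 6 libraries) or as a negative control (control, 6 libraries). Both groups were therefore nanoparticle-treated, and no untreated culture enters the comparison. The labels do not say whether the 6 libraries of a group came from separate cultures, so each p-value measures the spread between these libraries.

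The sodium-potassium pump uses ATP to move sodium out of the cell and potassium in, and it restores the gradients that action potentials and synaptic currents run down. A catalytic α chain is paired with a glycosylated β chain, which brings the pump to the membrane and tunes its affinity for potassium. In brain, Atp1b1 is known as the main neuronal β gene, Atp1b2 (also called adhesion molecule on glia) as the astrocyte one, and Atp1b3 as widely expressed. FXYD proteins are short single-pass membrane proteins that bind the pump and adjust its affinity for sodium or its turnover. Fxyd1 (phospholemman) is known from heart, muscle and brain, Fxyd5 (dysadherin) from epithelia, Fxyd6 (phosphohippolin) from hippocampus and other brain regions, and Fxyd7 from neurons. The comparison asks whether glial and neuronal pump genes moved together when Neuid was lowered.

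The 4 FXYD genes are shown by the part of their coding sequence that gives the family its name. Each line is a 45-base window of the transcript, 5′ to 3′, from the GENCODE M21 models on GRCm38, and the capitals mark the 5 codons of the signature.
Fxyd1: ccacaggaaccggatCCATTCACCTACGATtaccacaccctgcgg
Fxyd5: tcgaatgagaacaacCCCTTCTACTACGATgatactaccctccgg
Fxyd6: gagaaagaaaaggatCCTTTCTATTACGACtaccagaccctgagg
Fxyd7: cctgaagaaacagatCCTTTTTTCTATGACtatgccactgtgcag
The windows lie at chr7:31053458-31053920 on the minus strand for Fxyd1, chr7:31035267-31035413 on the minus strand for Fxyd5, chr9:45390645-45390793 on the plus strand for Fxyd6 and chr7:31045011-31047400 on the minus strand for Fxyd7. All are coding sequence, and in each gene the signature is split by an intron, between exons 3 and 4 in Fxyd1 and Fxyd6, exons 7 and 8 in Fxyd5 and exons 2 and 3 in Fxyd7. Of the 15 signature bases, 8 were the same in all 4 genes, and pairs of genes shared between 9 (Fxyd1 and Fxyd7) and 12 (Fxyd5 with Fxyd1 and with Fxyd6). The coding sequences are 92 codons in Fxyd1, 94 in Fxyd6, 80 in Fxyd7 and 179 in Fxyd5, whose longer part lies before the signature, at codon 135. No 50-base stretch of any of these transcripts occurred in another of the 7 genes, so 50-base reads of one member do not match another.

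The 12 libraries held between 11152556 (Neuid KD replicate 1) and 30914714 (control replicate 3) reads on genes. Neuid, annotated as Gm10419 (ENSMUSG00000072769, GRCm38 chr5:108367769-108378239, plus strand), measured 28.4 ± 2.03 CPM (read counts scaled to equal library totals, SD, n = 6) in control and 8.05 ± 1.13 CPM (n = 6) in Neuid KD. Every Neuid KD library lay below every control library, and 28.4% of the control mean remained. Reads on 2012 olfactory, vomeronasal and taste receptor genes, a measure of background reads, ranged from 26.7 to 667 CPM. They were at or above 100 CPM in 4 control and 3 Neuid KD libraries, called high-background here, and the other 2 control and 3 Neuid KD libraries are called low-background. Neuronal markers were abundant, led by Map2, Stmn2 and Nefl. Their sum overlapped between groups, at 7916 to 9271 CPM in control and 7787 to 9309 CPM in Neuid KD. Of 15 tested, 2 were higher and 1 lower at adjusted p under 0.05, beside 6.31% and 2.42% of all genes (median log2 fold change 0.011). These counts were 4 and 3 with DESeq2 and 1 factor of unwanted variation, and 3 and 3 within low-background libraries. Under upper-quartile scaling they were 2 and 3, within high-background libraries 1 and 0, and with GC and length offsets none passed either way.

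Among the β subunits, Atp1b2 was higher in Neuid KD than in control, whereas the levels of Atp1b1 and Atp1b3 in the groups overlapped. Atp1b2 (ENSMUSG00000041329, chr11:69599736-69605942, minus strand) had a lowest, median and highest level of 119, 135 and 144 CPM in control and of 186, 213 and 221 CPM in Neuid KD. All 6 Neuid KD libraries were above all 6 control libraries, as was so for 4.13% of all genes tested, and Atp1b2 was the only member whose groups did not overlap (5.7% of all genes, either direction). The mean rose from 134 ± 8.70 to 209.9 ± 12.1 CPM (SD, n = 6 each), a log2 fold change of 0.65 (SE 0.0549, 95% interval 0.53 to 0.77, adjusted p = 2.34e-07, edgeR quasi-likelihood test with Benjamini-Hochberg adjustment over 19578 genes). On the linear scale this is 1.57-fold, with an interval of 1.45 to 1.70. Atp1b2 passed the test and the log2 fold change threshold of 0.5, as did 2.44% of all genes tested in the upward direction. It was 1 of 7 members to do so and also the only 1 with an adjusted p under 0.05 (8.72% of all genes), and no member passed in the downward direction (0.792% of all genes). With a correction for GC content and transcript length, the log2 fold change was 0.71 but its SE widened to 0.197 and the adjusted p was 0.0801.

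Atp1b1 (ENSMUSG00000026576, chr1:164437109-164458355, minus strand) was by far the most abundant of the 7 genes. Its lowest, median and highest levels were 705, 769 and 829 CPM in control and 723, 788 and 820 CPM in Neuid KD. The range of Neuid KD lay wholly inside that of control, and the log2 fold change was 0.027 (SE 0.0489, 95% interval −0.077 to 0.13, adjusted p = 0.863, edgeR quasi-likelihood test). The interval leaves out a change of the size seen for Atp1b2 in either direction. The sign of this value turned under several settings, upper-quartile scaling among them (−0.032). The 3′ end of Atp1b1 overlaps Nme7 on the opposite strand by 617 bases, and 15.8% of its 50-base stretches match Nme7 transcripts in reverse, so some of its reads could belong to Nme7 if strand was not used in counting.

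Atp1b3 (ENSMUSG00000032412, chr9:96332655-96364442, minus strand) measured 26.4, 27.9 and 32.4 CPM (lowest, median, highest) in control and 25.5, 27.9 and 30.9 CPM in Neuid KD. The medians were equal to 3 digits and the groups overlapped throughout. The log2 fold change was −0.020 (SE 0.0645, 95% interval −0.16 to 0.12, adjusted p = 0.923), and its sign turned without control replicate 2 (0.012). A share of 9.71% of its 50-base stretches also occurs in Gm1848 on the same strand, so reads from these stretches could have been split between the genes or left uncounted.

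**Figure D1:**
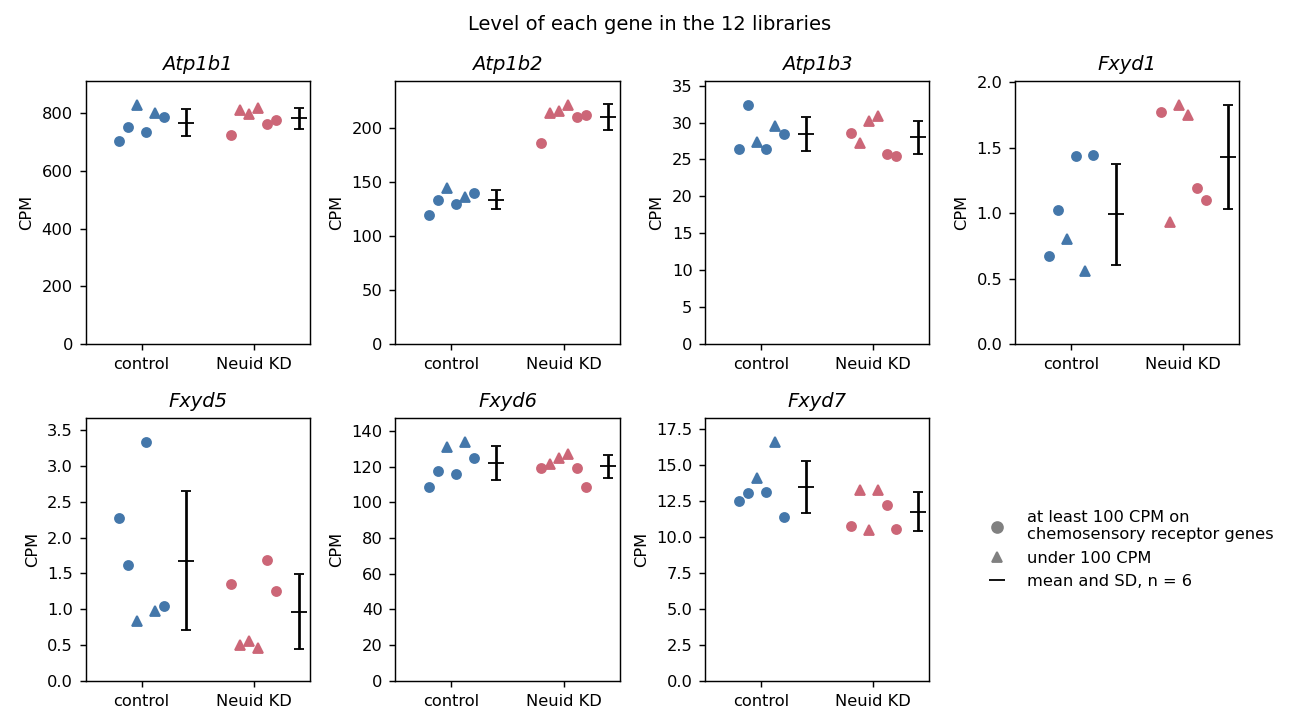
CPM of each of the 7 genes in each library, with control in blue and Neuid KD in red, circles for high-background and triangles for low-background libraries, and the mean with SD (n = 6) at the right of each group. Only for Atp1b2 do the groups separate, 119 to 144 CPM in control against 186 to 221 CPM in Neuid KD, whereas in the other 6 panels they overlap.

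The ratio of 2 genes within a library does not depend on library size or scaling, and it tests whether 2 subunits changed by different amounts. The log2 ratio of Atp1b2 to Atp1b1 reads was −2.52 ± 0.0301 in control (range −2.56 to −2.49) and −1.90 ± 0.0359 in Neuid KD (range −1.96 to −1.86, SD, n = 6 each). The groups lay far apart relative to their spread, with a difference of 0.62 (SE 0.0191, p = 0.002165, 2-sided exact permutation test over all arrangements of the 12 libraries, the smallest p this design allows; adjusted p = 0.006494 over 6 pairs). In counts, control libraries held 5.74 Atp1b1 reads for each Atp1b2 read and Neuid KD libraries 3.73.

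The ratio of Atp1b2 to Atp1b3 rose alike, from 2.24 ± 0.125 to 2.91 ± 0.134 (log2, SD, n = 6 each), a difference of 0.67 (SE 0.0748) with the same exact permutation p of 0.002165 and adjusted p of 0.006494. Again no Neuid KD library fell into the control range. For Atp1b1 to Atp1b3 the difference was 0.047 (SE 0.0688, exact permutation p = 0.513), and the groups overlapped.

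Levels of different genes can be compared only per length, so each was divided by the length of its exons merged over all annotated transcripts. Per kilobase, Atp1b1 made up 84.8% ± 0.389 of the 3 β genes in control, Atp1b2 11.1% ± 0.203 and Atp1b3 4.05% ± 0.345 (SD, n = 6). In Neuid KD the shares were 80.1% ± 0.283, 16.2% ± 0.362 and 3.70% ± 0.286. Every Neuid KD library had a lower Atp1b1 share and a higher Atp1b2 share than every control library, whereas the Atp1b3 shares overlapped. Because the 3 shares sum to the whole, the lower Atp1b1 share stands beside an Atp1b1 level that overlapped between groups. The summed β level was 294 ± 17.0 CPM per kilobase in control and 317 ± 14.7 in Neuid KD, with overlapping ranges.

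**Figure D2:**
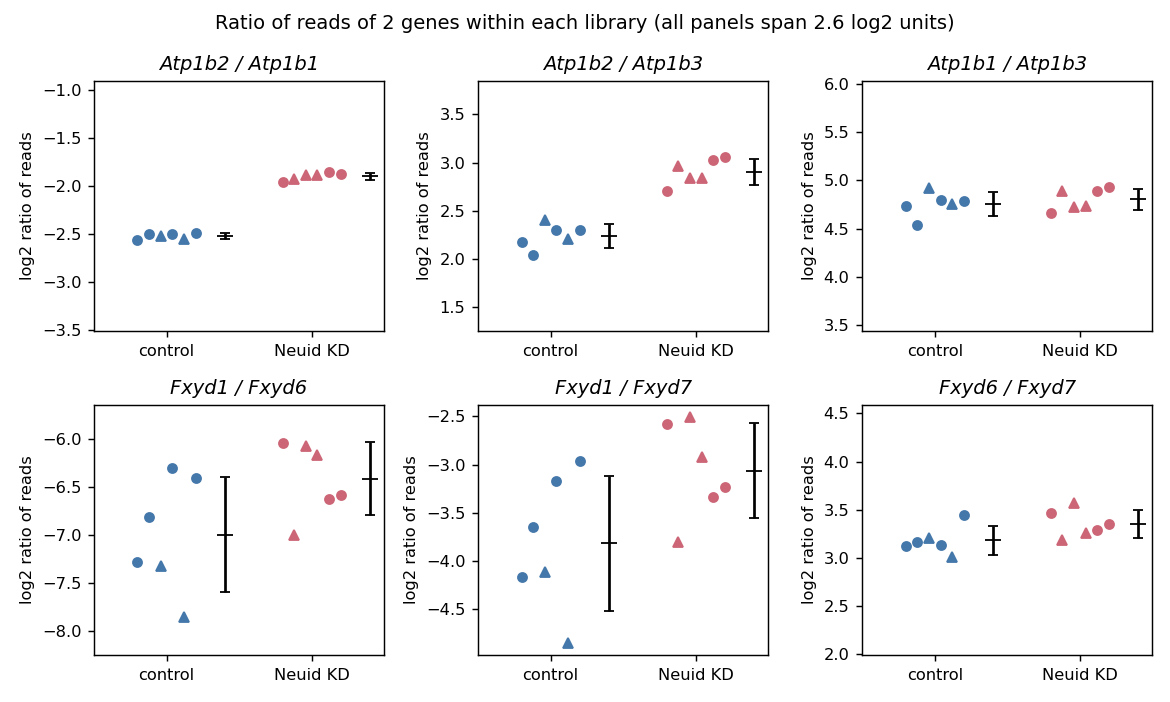
Log2 ratio of reads of 2 genes within each library for the 6 pairs tested, with control in blue and Neuid KD in red, circles for high-background and triangles for low-background libraries, and the mean with SD (n = 6). Both ratios with Atp1b2 separate the groups, by 0.62 and 0.67, and the other 4 panels overlap.

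None of the 4 FXYD genes passed the test, and the intervals of Fxyd1 and Fxyd5 were wide. Fxyd6 (ENSMUSG00000066705, chr9:45370185-45396159, plus strand) had the highest level of the 4, with a lowest, median and highest value of 109, 121 and 134 CPM in control and of 108, 120.5 and 127 CPM in Neuid KD. The ranges nearly coincided, and the log2 fold change was −0.022 (SE 0.0579, 95% interval −0.14 to 0.10, adjusted p = 0.903, edgeR quasi-likelihood test). Without control replicate 3 or 5 its sign turned (0.0029 and 0.0086).

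Fxyd7 (ENSMUSG00000036578, chr7:31042513-31051467, minus strand) measured 11.4, 13.1 and 16.7 CPM (lowest, median, highest) in control and 10.5, 11.5 and 13.3 CPM in Neuid KD. The 2 highest of the 12 values were low-background control libraries, at 14.1 and 16.7 CPM, and the rest of the groups overlapped. The log2 fold change was −0.19 (SE 0.0921, 95% interval −0.38 to 0.0073, adjusted p = 0.292). It was −0.12 without control replicate 5, which held the highest value, and −0.33 among low-background libraries (adjusted p = 0.576 and 0.084).

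Fxyd1 (ENSMUSG00000036570, chr7:31051678-31057199, minus strand) was counted with only 12 to 32 reads in control and 21 to 50 in Neuid KD libraries. It measured 0.555, 0.913 and 1.45 CPM (lowest, median, highest) in control and 0.931, 1.47 and 1.82 CPM in Neuid KD. The Neuid KD values were shifted upward but overlapped with control, with a log2 fold change of 0.52 (SE 0.341, 95% interval −0.20 to 1.24, adjusted p = 0.494). The interval holds both no change and a rise larger than that of Atp1b2, so a difference was not detectable in these libraries. It was 0.23 among high-background and 1.09 among low-background libraries (adjusted p = 0.911 and 0.119).

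Fxyd5 (ENSMUSG00000009687, chr7:31032722-31042481, minus strand) was also sparse, with 21 to 72 reads in control and 12 to 41 in Neuid KD. Its levels were 0.834, 1.33 and 3.34 CPM (lowest, median, highest) in control and 0.455, 0.909 and 1.68 CPM in Neuid KD. The groups overlapped, and the log2 fold change was −0.80 (SE 0.441, 95% interval −1.74 to 0.13, adjusted p = 0.371). Leaving out 1 library at a time moved it between −1.08 and −0.48, the smaller change without control replicate 4, which held the highest value. The SE was 0.429 after thinning every library to the smallest one and 0.270 with background reads as a covariate.

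**Figure D3:**
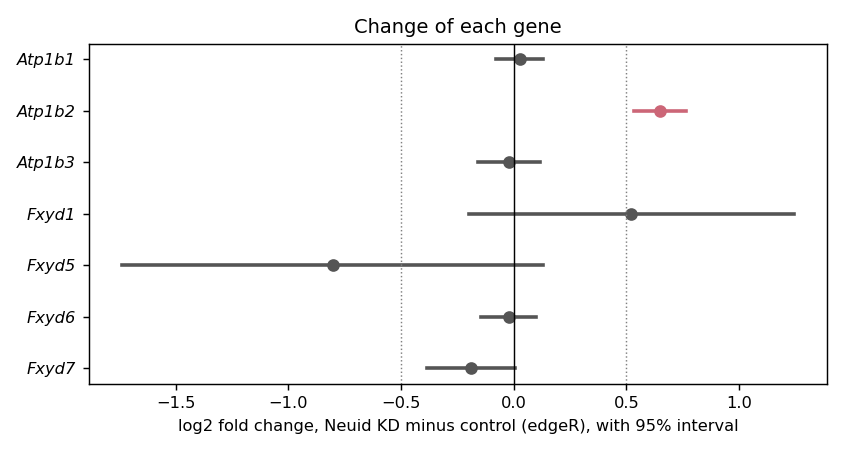
Log2 fold change (Neuid KD minus control) of each gene with its 95% interval from the edgeR fit, in red where the adjusted p is under 0.05; dotted lines mark 0.5 in either direction. Atp1b2 lies at 0.65 with an interval above 0.5, Atp1b1, Atp1b3 and Fxyd6 lie within 0.03 of 0, and the intervals of Fxyd1 and Fxyd5 are the widest.

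Ratios within the FXYD group did not pass the test. The differences were 0.58 (SE 0.289) for Fxyd1 to Fxyd6, 0.75 (SE 0.350) for Fxyd1 to Fxyd7 and 0.17 (SE 0.0838) for Fxyd6 to Fxyd7, with exact permutation p of 0.06926, 0.06061 and 0.07143 and an adjusted p of 0.08571 for each. All 3 passed without control replicate 6, at 0.70, 0.93 and 0.23 (exact permutation, adjusted p = 0.04935, 0.04221 and 0.01732). Per kilobase, Fxyd6 made up 59.4% ± 2.32 of the 4 genes in control and 62.1% ± 2.05 in Neuid KD (SD, n = 6 each), Fxyd7 38.8% ± 2.46 and 36.0% ± 2.38, Fxyd1 0.920% ± 0.385 and 1.39% ± 0.379, and Fxyd5 0.822% ± 0.503 and 0.499% ± 0.281. All 4 shares overlapped between groups.

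In control, the order of levels per kilobase was Atp1b1 (249 ± 14.7 CPM per kilobase), Atp1b2 (32.8 ± 2.13), Fxyd6 (29.7 ± 2.36), Fxyd7 (19.5 ± 2.57), Atp1b3 (11.9 ± 0.953), Fxyd1 (0.453 ± 0.176) and Fxyd5 (0.401 ± 0.232, SD, n = 6). Atp1b2 and Fxyd6 were not separated by the spread between libraries, nor were Fxyd1 and Fxyd5, whereas the other neighbours in this order had no overlapping control libraries. Atp1b1 was 7.61 times Atp1b2, and Atp1b3 was 26.3 times Fxyd1. Before division by length, Fxyd7 lay below Atp1b3, at 13.5 against 28.4 CPM in control. The lengths cover all annotated transcripts, 17 for Fxyd1 but 2 for Fxyd7, and which of them were expressed was not tested. In Neuid KD, Atp1b2 reached 51.4 ± 2.96 CPM per kilobase beside 29.2 ± 1.60 for Fxyd6 and 254 ± 11.6 for Atp1b1.

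Several members moved with background reads within each group. Fxyd5 was at 1.04 to 3.34 CPM in the high-background and 0.834 to 0.971 CPM in the low-background control libraries, and at 1.26 to 1.68 against 0.455 to 0.561 CPM in Neuid KD. It was thus higher in every high-background library of its group. Atp1b1 and Fxyd6 ran the other way: Atp1b1 was at 705 to 786 against 799 to 829 CPM in control and at 723 to 778 against 797 to 820 CPM in Neuid KD, and Fxyd6 at 109 to 125 against 131 to 134 CPM and at 108 to 119 against 122 to 127 CPM. For Atp1b2 the difference between groups was similar within either class. Its log2 fold changes were 0.65 among high-background and 0.60 among low-background libraries (adjusted p = 1.16e-06 and 1.14e-15, edgeR quasi-likelihood test). The low-background fit compared 2 control with 3 Neuid KD libraries and borrows its estimate of spread from other genes. An exact permutation test on so few libraries cannot give a p below 0.1. With background reads as a covariate, the log2 fold change of Fxyd5 was −0.65 (SE 0.270, adjusted p = 0.11, edgeR quasi-likelihood test). Within high-background and low-background libraries it was −0.51 and −0.86 (adjusted p = 0.695 and 0.408, same test). How many of the Fxyd5 reads are background reads was not tested.

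**Figure D4:**
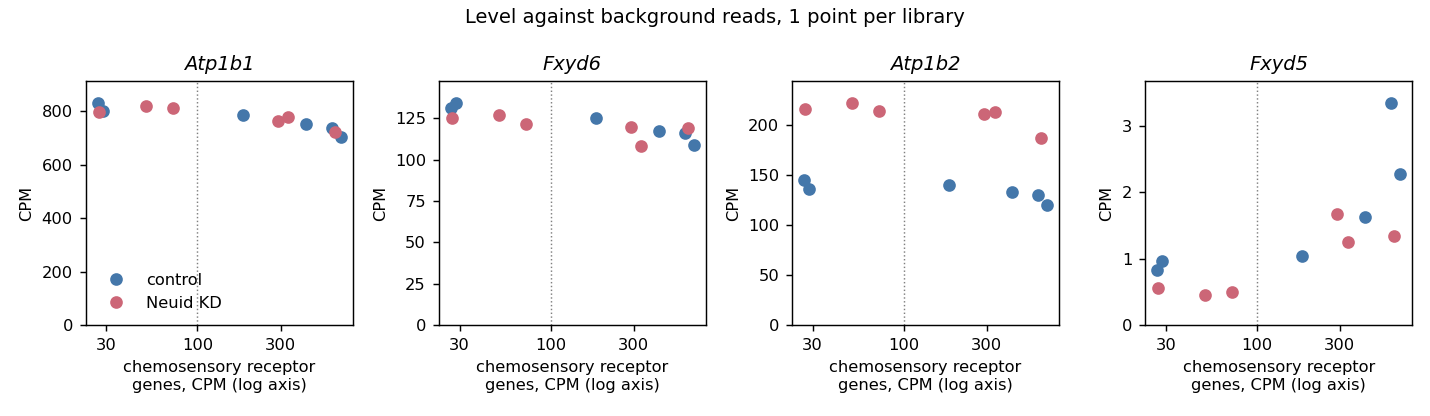
CPM of Atp1b1, Fxyd6, Atp1b2 and Fxyd5 against the CPM on chemosensory receptor genes (log axis), 1 point per library, control in blue and Neuid KD in red; the dotted line marks 100 CPM. Atp1b2 stays above control at every background level, and Fxyd5 is higher in the high-background libraries of both groups.

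Markers of astrocytes, the cells in which Atp1b2 is known to be expressed, were higher in Neuid KD as well. Of 18 markers, 17 were tested and 16 were higher at adjusted p under 0.05 (6.31% of all genes tested were), with a median log2 fold change of 1.25 beside −0.027 over all genes. Their summed level was 2018 to 2542 CPM in control and 3860 to 4573 CPM in Neuid KD, without overlap, led by Slc1a2, Slc1a3 and Gfap. The change of Atp1b2 was smaller than that of 12 and larger than that of 5 of the 17 markers tested, and 333 of the 477 genes called upward rose by more. The 10 markers of oligodendrocyte precursors summed to 458 to 613 CPM in control and 1251 to 1465 CPM in Neuid KD. Most of this sum was Ptprz1, with means of 428 and 1096 CPM. Of the 10, 3 were higher at adjusted p under 0.05 (Ptprz1, Olig1 and Olig2), beside 6.31% of all genes. The other 7, Pdgfra, Cspg4 and Sox10 among them, did not pass, and the median log2 fold change of the list was 0.125. Among myelinating oligodendrocyte markers 1 of 5 tested was lower (none within high-background libraries), beside 2.42% of all genes. None of 5 microglial, 11 vascular and 8 choroid plexus or ependymal markers tested passed in either direction (with DESeq2 and 1 factor of unwanted variation, 1 vascular marker was higher and 1 lower). In bulk RNA, more cells of a type and more RNA per cell cannot be told apart, and the part of astrocyte content in the Atp1b2 value was not tested.

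Over the 12 libraries, the profile of Atp1b2 was most like those of Ncan (Pearson r = 0.994), Sox9 (0.994) and Qk (0.993) among the 8927 tested genes that averaged 10 CPM or more. These are a perineuronal proteoglycan, a glial transcription factor and an RNA-binding protein of glia, and all 3 were higher in Neuid KD, by 1.01, 0.47 and 0.91 on the log2 scale (adjusted p = 2.79e-08, 3.2e-06 and 2.69e-08). The profile of Atp1b1 was most like Sec31a (0.988), Prkar1a (0.978) and Ywhab (0.977), and that of Fxyd6 most like Nsdhl (0.969), Uqcrc2 (0.943) and Flrt3 (0.940). The genes nearest to Fxyd7 were Fgf11 (0.902), Fam57a (0.901) and Vstm2l (0.895). For Atp1b3 they were Arl16 (0.856), Chmp7 (0.852) and Rnpepl1 (0.843), for Fxyd1 Ptgr2 (0.850), Cep162 (0.837) and Rpl5 (0.830), and for Fxyd5 Zfyve26 (0.898), Neb (0.867) and Ankrd24 (0.859). None of these 18 genes passed the test between groups. All libraries share the 2 groups and the background classes, so these correlations describe the 12 libraries and carry no p.

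Members Fxyd5, Fxyd7 and Fxyd1 lie side by side on chromosome 7 in this order, all on the minus strand, with 31 bases between the annotated ends of Fxyd5 and Fxyd7 and 210 between Fxyd7 and Fxyd1. Their values did not move as a unit, with log2 fold changes of −0.80, −0.19 and 0.52, none past the test. Fxyd6 lies 3509 bases from Fxyd2 on chromosome 9. Within 100 kb of the members, 54 other genes are annotated and 31 were tested. Of the 31, 1 passed at adjusted p under 0.05 in either direction, beside 8.72% of all genes tested. This was Dscaml1, a cell adhesion gene near Fxyd6 (log2 fold change 0.27, adjusted p = 0.0174, edgeR quasi-likelihood test), and none passed the threshold of 0.5 as well.

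The remaining pump regulators were near the floor. Atp1b4 and Fxyd3 had 0 reads in some libraries, with adjusted p of 0.878 and 0.727, and Fxyd4 was too sparse to test. Fxyd2, the kidney γ subunit, measured 2.98 ± 0.793 CPM in control and 2.01 ± 0.916 in Neuid KD (log2 fold change −0.58, adjusted p = 0.278). All 4 Nkain genes, which encode membrane proteins that interact with the β subunit, had positive log2 fold changes and 2 passed the test: Nkain2 went from 24.5 to 35.9 CPM (log2 fold change 0.56, adjusted p = 1.81e-04), without overlap, and Nkain3 from 61.3 to 76.2 CPM (0.32, adjusted p = 0.015), with overlap. Of all genes, 6.31% passed upward. Within high-background libraries 1 of the 4 passed and with GC and length offsets none did, and under upper-quartile scaling 3 were positive. Nkain2 holds 6 other annotated genes on its own strand, with which reads could be shared.

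Other P-type pumps, which move calcium, protons or manganese, had 1 member higher and 1 lower among 10 tested of 12, beside 6.31% and 2.42% of all genes. Atp2c1 of the Golgi was higher (log2 fold change 0.20, adjusted p = 0.0447) and Atp4a, the gastric proton pump, was lower at a low level (2.55 to 1.23 CPM, −1.06, adjusted p = 0.021). The call of Atp2c1 was lost under RLE scaling, with GC and length offsets and within high-background libraries, and within either background class no pump of this list was lower at adjusted p under 0.05. Of 18 transporters that draw on the sodium and potassium gradients, 3 were higher and 3 lower, beside 6.31% and 2.42% of all genes. These counts were 1 and 1 with GC and length offsets, 3 and 6 under upper-quartile scaling and 4 and 6 with DESeq2 and 1 factor of unwanted variation. The sodium-bicarbonate cotransporter Slc4a4, also one of the astrocyte markers, rose from 50.4 to 147 CPM (1.55, adjusted p = 9.77e-11), and Slc12a4 and Slc24a3 each rose by 0.42 (adjusted p = 2.58e-04 and 1.38e-04). Slc12a7 (−0.90, adjusted p = 9.83e-04), Slc24a4 (−0.52, adjusted p = 0.00404) and Slc4a8 (−0.24, adjusted p = 0.0232) fell. In each of these 6 genes the groups did not overlap, as was so for 5.7% of all genes tested. The 6 were named because they passed the test on the same libraries, so the lack of overlap is not separate evidence. Slc12a4, Slc24a3 and Slc24a4 hold or overlap other annotated genes, with which reads could be shared.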

How the data were processed

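The values are gene counts, deposited by the authors as one matrix of 12 libraries and 55471 genes. Per the labels and methods, RNA was made into stranded total RNA libraries, sequenced as single reads, aligned with STAR to GRCm38 (mm10) and counted with featureCounts; the annotation release and the strand setting are not given in the sources used here. Samples were grouped by their labels, and the study's own test used DESeq2 with a correction for unwanted variation.

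Here counts were tested with edgeR 4.0.16 in R 4.3.3 (TMM scaling, filterByExpr, quasi-likelihood test, group as the only term, Benjamini-Hochberg adjustment), and a gene was called where the adjusted p was under 0.05 and it changed by more than 0.5 on the log2 scale in either direction. CPM values use TMM-scaled totals of the tested genes. Ratios are log2((count a + 0.5)/(count b + 0.5)) with exact permutation tests that list every arrangement (Python 3.11.15). Alternatives were other scalings, filters and thresholds, DESeq2 1.42.0, 1 factor of unwanted variation from replicates, background reads as a covariate or as 2 classes, GC and length offsets, thinning to 11152556 counts, a replicate block and leaving out each library. The fit was tested on simulated counts.

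Coordinates and transcript sequences are from GENCODE M21 on GRCm38. The members and gene lists were chosen with earlier results of these data known. Named genes are the 7 members, Neuid, list genes with an adjusted p under 0.05, the 3 most abundant markers of a cell type, the 3 genes of most similar profile per member and called genes within 100 kb; Dscaml1, Fxyd2, Fxyd3, Fxyd4, Atp1b4 and Nme7 were named after their values were seen. The catalytic α subunits are not reported here.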

Additional observations from a re-analysis of the deposited data

Results flagged for a closer look

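In 1 of 28 groups of 6 values examined for a value standing apart, the lowest value did so. Atp1b2 measured 186 CPM in Neuid KD replicate 1, the library with the fewest reads and the most background reads of its group, whereas the other 5 Neuid KD libraries lay between 210.1 and 221 CPM. The gap to the next library was 0.679 of the group's range, above Dixon's critical value for 6 samples, which chance passes in about 1 in 20 groups. Without that library the log2 fold change of Atp1b2 was 0.64 (adjusted p = 2.04e-08, edgeR quasi-likelihood test).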

How the results depend on the processing

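Atp1b2 kept its direction in all 25 alternatives (log2 fold change 0.59 to 0.71) and its call in 24, the exception being the GC and length offsets (0.71, adjusted p = 0.0801, over all alternatives 1.69e-63 to 0.0801). Values near 0 changed sign: Atp1b1 under upper-quartile scaling (−0.032), DESeq2 with 1 factor (−0.0069), low-background libraries (−0.037), thinning (−0.0047) and leaving out libraries (−0.0029 to 0.053); Atp1b3 within low-background libraries (0.026), with GC and length offsets (0.073) and leaving out libraries (−0.063 to 0.012); Fxyd6 within high-background libraries (6.38e-04), with GC and length offsets (0.022) and leaving out libraries (−0.059 to 0.0086). None of these passed the test under any setting. Fxyd1, Fxyd5 and Fxyd7 kept their direction and did not pass in any of 25 (0.23 to 1.09, −1.08 to −0.48 and −0.33 to −0.12).

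The difference in log2 ratio (Neuid KD minus control) for Atp1b2 to Atp1b1 was 0.62 within high-background and 0.64 within low-background libraries. For Atp1b2 to Atp1b3 it was 0.73 and 0.58 (exact permutation, adjusted p = 0.08571 and 0.3 for each pair, from smallest possible p of 0.0286 and 0.1). The difference for Atp1b1 to Atp1b3 turned to −0.058 within low-background libraries. Leaving out libraries, the difference for Fxyd1 to Fxyd6 ranged from 0.41 to 0.72, for Fxyd1 to Fxyd7 from 0.55 to 0.93 and for Fxyd6 to Fxyd7 from 0.13 to 0.23. All passed without control replicate 6 alone, at 0.70, 0.93 and 0.23 (exact permutation, adjusted p over the alternatives 0.04935 to 0.4, 0.04221 to 0.4 and 0.01732 to 0.48).

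Of all genes, 477 were called upward and 155 downward. At a threshold of 0.3 these were 797 and 328, and with none 1235 and 473. Downward calls were 254 with DESeq2, 320 with DESeq2 and 1 factor, 272 with edgeR and 1 factor, 300 with the background covariate, 99 within high-background libraries, 97 with GC and length offsets, and 123 to 269 leaving out libraries, the last without Neuid KD replicate 1. The cause was not tested.

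The correlation of deviations within a replicate number ran from −0.637 to 0.774. It was 0.774, 0.751 and 0.0037 for numbers 1, 3 and 6, in each of which both libraries had the same background class. Numbers 2, 4 and 5, whose libraries differed in class, gave −0.454, −0.637 and −0.552. Background reads were not removed first, so this check cannot tell whether libraries of the same number share a culture. Only 2 of 6 control libraries matched the Neuid KD library of their own number best. With the replicate number as a block, 474 genes were called upward and 167 downward and Atp1b2 was at 0.65 (adjusted p = 2.57e-07, edgeR quasi-likelihood test). Paired tests of both Atp1b2 ratios gave differences of 0.62 and 0.67 (exact permutation, adjusted p = 0.09375). Before adjustment each p was 0.03125, the smallest this design allows. Fxyd1 and Fxyd5 had no more than 72 reads a library.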
